A study of Mus musculus with 52 samples.

Results

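The 10 genes described here encode heat shock proteins and 1 of their cochaperones in mouse gastrocnemius muscle. They were chosen by name, as the rows whose Ensembl identifier carries the symbol Hspa1a, Hspa1b, Hsph1, Dnajb1, Hspb1, Cryab, Hsp90aa1, Hspa8, Bag3 or Hspb7, and they are 10 of the 55487 genes in the table. All 10 of them passed the filter on low counts and were among the 16668 genes tested.

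Total RNA was sequenced from the gastrocnemius, a calf muscle, of male C57BL/6 mice aged 22 to 24 months, in 52 libraries that fall into 13 groups of 4. Ambulatory mice on plain drinking water (AMB_W) were the baseline. The other 12 groups were exposed to hindlimb unloading, in which the hind legs bear no weight, and were sampled either after unloading (HU) or after a following 7 d (RL7) or 14 d (RL14) of reloading. At each of these times 1 group drank water (W), 1 metformin (M), a diabetes drug, 1 the amino acid leucine (L) and 1 both (ML). The length of the unloading and the doses are not given in the sources used here, and no ambulatory group drank metformin or leucine, so a drink could be compared with water only in unloaded or reloaded mice. A library is named by its group and the number in its title, and each was taken as 1 mouse, so errors and tests describe the spread between these libraries. Levels are given in CPM, which set a gene's count against the size of its library after TMM normalization.

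Heat shock proteins bind unfolded proteins, keep them from clumping and help them to refold or to be broken down. The HSP70 proteins do this in cycles of ATP binding and hydrolysis, which J domain proteins such as Dnajb1 start and nucleotide exchange factors such as Hsph1 and Bag3 reset, while the small heat shock proteins hold unfolded clients without using ATP. Heat shock factor 1 (Hsf1) drives many of these genes through heat shock elements, which are repeats of the unit GAA in alternating orientation, and in muscle the small heat shock proteins and Bag3 protect and turn over proteins of the Z-disc under load.

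Hspa1a (ENSMUSG00000091971, chr17:34969190-34972156, minus strand) and Hspa1b (ENSMUSG00000090877, chr17:34956436-34959238, minus strand) are neighbouring copies without introns on GRCm38, with 1 exon each in GENCODE vM21. Their transcripts share 1074 windows of 150 bases, the length of a read, or 38.1% of those of Hspa1a and 40.5% of those of Hspa1b, so the way reads were split between them makes both counts uncertain. The identity extends into their promoters, where 247 of the 250 bases before the start are the same. Both copies hold the letters GAANNTTC, 2 units of a heat shock element, 104 bases before the start. The 120 bases before the RefSeq start are printed to show this near identity, on the strand of the gene, with the 2 units in capitals.

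Hspa1a, chr17:34972157-34972276, GRCm38.p6, minus strand: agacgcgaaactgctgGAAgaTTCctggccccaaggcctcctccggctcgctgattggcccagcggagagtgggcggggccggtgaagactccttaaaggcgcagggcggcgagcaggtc
Hspa1b, chr17:34959239-34959358, GRCm38.p6, minus strand: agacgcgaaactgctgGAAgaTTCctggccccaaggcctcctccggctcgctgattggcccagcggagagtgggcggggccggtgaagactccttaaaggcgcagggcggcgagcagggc

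For 7 of the 10 genes RefSeq windows, which run from 250 bases before to 50 bases after the start, were at hand and were searched on both strands. The 2-unit letters GAANNTTC or TTCNNGAA were present in 5 of the 7 genes (Bag3, Hspa1a, Hspa1b, Hspb1 and Hsph1). By window these were 6 of 9, beside 15.1% of the 32851 RefSeq windows of that length. In Bag3 the only match began at base 43 after the start, in the transcribed part. The 3-unit letters GAANNTTCNNGAA or TTCNNGAANNTTC, which contain the shorter ones, were present in 0.603% of all windows. Among the 7 genes they were present only in Hsph1, in 2 of the 9 windows. That match begins at base 37 after 1 RefSeq start of Hsph1 and at base 16 after another, in the transcribed part. It is printed because Hsph1 is the gene with the most calls in the comparisons that follow, with the units in capitals. The upstream stretch of Hspb1 is printed beside it for its pair of 2-unit matches. A match is a run of letters and says nothing of binding in these muscles.

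Hsph1 match, chr5:149636288-149636300, GRCm38.p6, minus strand: TTCtgGAAagTTC
Hspb1, chr5:135887799-135887918, GRCm38.p6, plus strand: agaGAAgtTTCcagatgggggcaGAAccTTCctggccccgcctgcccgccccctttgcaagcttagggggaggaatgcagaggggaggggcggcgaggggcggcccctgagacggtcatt

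Per kilobase of exon the 10 genes covered a wide range. The highest median level over the 52 libraries belonged to Cryab, a small heat shock protein of lens and muscle, with 169 CPM per kilobase, followed by Hspa8, the constitutive HSP70, with 140 CPM per kilobase. Hspb7 (59.3 CPM per kilobase), Hspb1 (44.5 CPM per kilobase) and Bag3 (41.8 CPM per kilobase) formed the middle. The stress-inducible HSP90 gene Hsp90aa1 had 6.64 CPM per kilobase and Hsph1 6.52. The lowest were Hspa1a (0.818 CPM per kilobase), Dnajb1 (0.801) and Hspa1b (0.467), which was counted 5 to 222 times in a library.

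The 52 totals ran from 15605044 to 32492548 counts. All 8 skeletal muscle markers, among them Myh4 and Acta1, were detected in every library, with a summed level of 219152 to 323970 CPM. A few libraries stood apart. The liver gene Alb was above 16 CPM in 12 of them, RL7_M 4 held 565 CPM of summed adipocyte markers against a median of 87.7, and RL14_ML 1 had the lowest Hspa8 (299 CPM) and Hsp90aa1 (9.61 CPM) of the 52. In bulk muscle, fewer cells of a type and less RNA per cell cannot be told apart.

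The response to unloading was asked first in mice on water (HU_W against AMB_W). Hsph1, the HSP110 cochaperone that exchanges nucleotide on HSP70, and Hspa8, the HSP70 it serves, fell, while the other 8 genes did not pass the test. These 2 of 10 calls stand beside 2.78% of all genes tested that were called in either direction and 0.834% that fell. The median log2 fold change of the 10 genes was 0.02, against -0.01 for all genes tested, with 5 of the 10 above 0.

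Hsph1 (ENSMUSG00000029657, chr5:149614287-149636376, minus strand) measured 66.4, 60.5, 55.5 and 60.8 CPM in the AMB_W libraries and 34.5, 32.1, 37.2 and 27 CPM in the HU_W libraries. Every unloaded library lay far under every ambulatory one. The fall was 1.86-fold (log2 fold change -0.89 ± 0.15 SE, n = 4 per group, edgeR adjusted p = 0.000215), and it was called under all 12 alternatives (adjusted p up to 0.0241) and without any 1 of the 8 libraries.

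Hspa8 (ENSMUSG00000015656, chr9:40800984-40810087, plus strand) measured 756, 650, 649 and 720 CPM in AMB_W and 519, 426, 573 and 423 CPM in HU_W. The groups again did not overlap, as was so for 13% of all genes tested, but the spread inside HU_W was wide. The fall of 1.43-fold (log2 fold change -0.52 ± 0.15 SE) lay close to the threshold (edgeR adjusted p = 0.0439). The call was lost under 5 of 12 alternatives (adjusted p up to 0.431) and without any of 7 of the 8 libraries (0.0625 to 0.182, all but HU_W 3).

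Hsph1 was also low in the unloaded mice on the other drinks. It measured 37, 40.5, 38.9 and 33.6 CPM in HU_M, 30.1, 37.1, 38.5 and 38.6 CPM in HU_L, and 26.6, 28.4, 28.4 and 39.5 CPM in HU_ML. All 12 of these libraries lay under the lowest ambulatory one, and HU_ML 6 stood above the other 3 of its group.

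Against AMB_W, which these comparisons share with each other and with HU_W, Hsph1 fell 1.62-fold in HU_M (log2 fold change -0.70 ± 0.15 SE, edgeR adjusted p = 0.0039). In HU_L it fell 1.69-fold (-0.76 ± 0.15 SE, adjusted p = 0.00147 by edgeR), and in HU_ML 1.98-fold (-0.99 ± 0.15 SE, adjusted p = 0.000162 by edgeR). It was the only 1 of the 10 genes called in each, where 3.62%, 3.74% and 2.07% of all genes tested were called and 1.15%, 1.21% and 0.816% fell. Each call held under all 12 alternatives and without any 1 of the 8 libraries.

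Hspa8 had log2 differences of -0.43, -0.45 and -0.51 in HU_M, HU_L and HU_ML against AMB_W, with edgeR adjusted p of 0.0974, 0.0774 and 0.0542. Its libraries did not overlap with AMB_W in any of the 3. In all, 4, 3 and 4 of the 10 genes had no overlap there, beside 14.2%, 13.2% and 11.5% of all genes tested. For Hspa8 3 or 4 of the 12 alternatives passed the threshold, among them limma voom and a fit of only the groups compared. Without RL14_ML 1 and 6, which are in neither group but enter the shared spread, its adjusted p was 0.0162, 0.00901 and 0.00467.

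**Figure D1:**
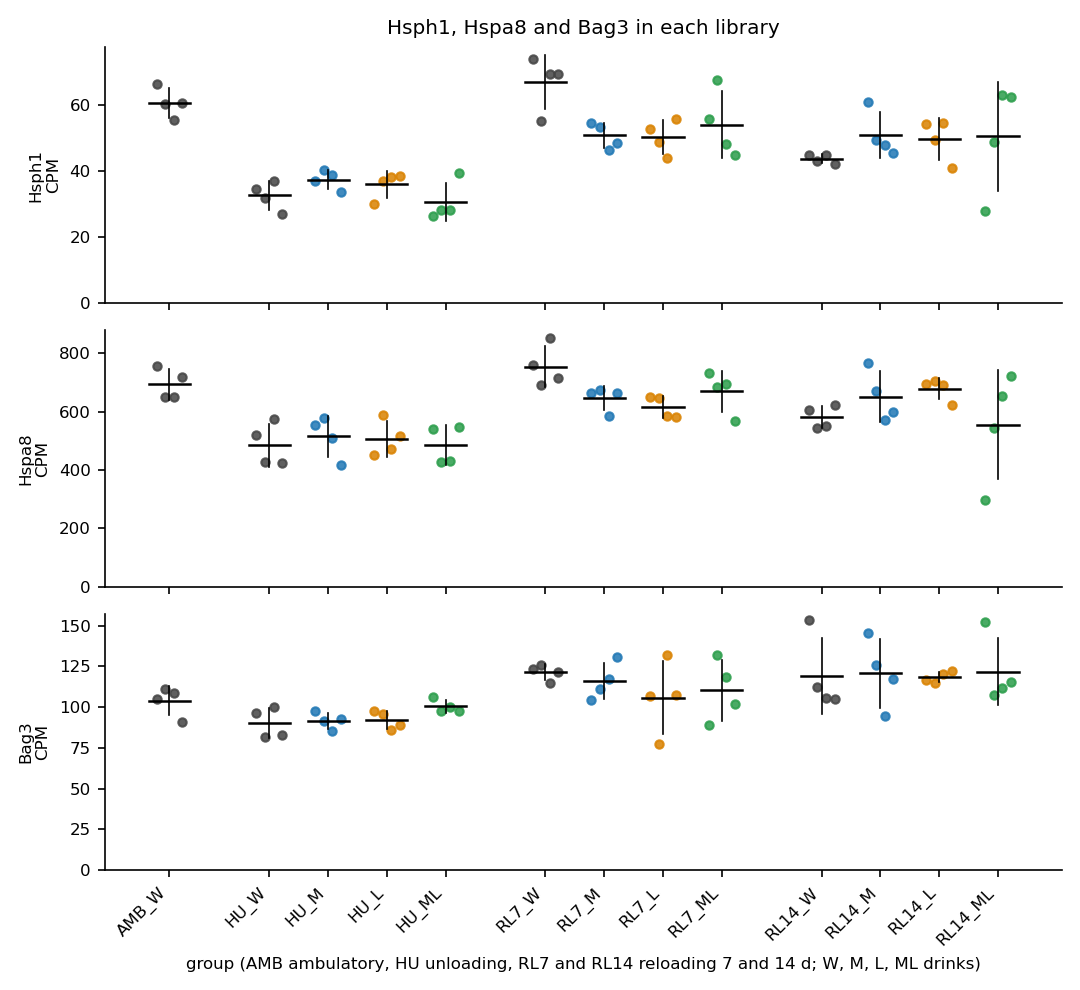
Level of Hsph1, Hspa8 and Bag3 in CPM on the vertical axes, for each of the 52 libraries (points) in the 13 groups. Horizontal lines are group means and vertical lines 1 SD (n = 4). Colours mark the drink. The 16 unloaded libraries hold Hsph1 at 26.6 to 40.5 CPM, under all 4 ambulatory ones at 55.5 to 66.4 CPM.

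Other genes of the chaperone system moved little with unloading on water. Of 82 further chaperone and cochaperone genes tested, from 83 listed, 1 rose and 0 fell in HU_W against AMB_W by edgeR, with a median log2 difference of -0.08 against -0.01 for all genes tested. The gene that rose was Fkbp5, an HSP90 cochaperone that is also a glucocorticoid target, which went from 25.9 ± 4.99 to 98.6 ± 16.2 CPM (SD, n = 4; 3.80-fold, edgeR adjusted p = 7.03e-06). In HU_M and HU_L, Bag2, an inhibitor of the ubiquitin ligase Chip, fell beside a rise of Fkbp5, and in HU_ML Bag2, St13, an HSP70 cochaperone, and Ahsa2 fell while Fkbp5 rose 3.26-fold (edgeR adjusted p = 0.000166). Hsf1 itself measured 24.7 ± 2.77 CPM in HU_W and 25.9 ± 2.66 CPM in AMB_W (SD, n = 4, edgeR adjusted p = 0.908) and was called in none of the 27 comparisons.

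Other signals moved with unloading as well. Of 8 glucocorticoid response genes, a list that holds Fkbp5, 7 rose in HU_W, with a summed level of 1203 to 1486 CPM against 655 to 767 CPM in AMB_W, and of 12 immediate early genes 6 rose (302 to 513 CPM against 160 to 200 CPM). Of 6 red blood cell transcripts 5 rose, from 2.85 to 6.23 CPM summed in AMB_W, where 3 of the 6 were at 0 in at least 1 library, to 27.6 to 59.8 CPM in HU_W. Whether any of these signals bears on the fall of Hsph1 or Hspa8 was not tested. None of the 12 alternatives, all of which called Hsph1 in HU_W, had any of these signals as a covariate. They included a fit with the mean level of slow fibre genes as a covariate and 1 without the 12 libraries that held Alb.

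Reloading was examined with RL7_W against HU_W, which shares the HU_W libraries with the comparison above. Hsph1, Hspa8 and Bag3 rose, 3 of the 10 genes, and 0 fell. Over all genes tested 4.88% were called, 1.97% as rising. The same 3 genes had no overlap between the groups, beside 17.2% of all genes. The median log2 difference of the 10 genes was 0.16, against 0.03 for all genes.

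After 7 d of reloading on water, Hsph1 measured 74, 55.3, 69.5 and 69.4 CPM. All 4 libraries lay above the highest unloaded one, 37.2 CPM. The rise was 2.05-fold (log2 fold change 1.04 ± 0.15 SE, n = 4 per group, edgeR adjusted p = 1.78e-05), called under all 12 alternatives and without any 1 of the 8 libraries.

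Hspa8 measured 760, 691, 850 and 714 CPM in RL7_W, again above every HU_W library. It rose 1.55-fold (log2 fold change 0.64 ± 0.15 SE, edgeR adjusted p = 0.00609). The call held without any 1 of the 8 libraries and under 11 of 12 alternatives. It was lost without the 12 libraries that held Alb (0.167), which leaves HU_W with 2.

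Bag3 (ENSMUSG00000030847, chr7:128523616-128546981, plus strand) encodes a cochaperone that links HSP70 and small heat shock proteins to the removal of damaged filamin by autophagy. It measured 96.2, 81.8, 100 and 82.8 CPM in HU_W and 123, 126, 115 and 122 CPM in RL7_W. The reloaded libraries were close together and all above the unloaded ones. The rise of 1.35-fold (log2 fold change 0.43 ± 0.13 SE, edgeR adjusted p = 0.0415) lay near the threshold. It was lost under 3 of 12 alternatives (up to 0.227), and 7 of the 8 leave-outs gave 0.05 to 0.165, all but that of HU_W 3.

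Against the ambulatory baseline, 0 of the 10 genes were called in RL7_W, nor was any of the 16668 genes, and 0 of the 10 had an unadjusted p under 0.05 by edgeR. None was called by limma voom or DESeq2 either. Bag3 was the 1 gene of the 10 whose libraries did not overlap, all 4 of RL7_W being higher, beside 10.8% of all genes. The log2 difference of Hsph1 was 0.14 with an interval of 2 SE from -0.16 to 0.45, which leaves room for a difference of that size.

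After 14 d of reloading on water, Hsph1 measured 44.9, 43.2, 44.9 and 42.2 CPM, a tight group that lay above all HU_W libraries and under all AMB_W and RL7_W libraries. By edgeR it was not called against any of them: the log2 difference was 0.42 ± 0.15 (SE) against HU_W (adjusted p = 0.0696), -0.47 ± 0.15 against AMB_W (0.117) and -0.61 ± 0.15 against RL7_W (0.19). A limma voom fit called all 3 (adjusted p of 0.00396, 0.00204 and 0.000681), as did a fit of only the groups compared and a fit without RL14_ML 1 and 6.

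In RL14_W against AMB_W, 0 of the 10 genes and 0.174% of all genes were called, with 2 of the 10 at an unadjusted p under 0.05. Voom called 3 (Hsph1, Hsp90aa1 and Hspa8) and DESeq2 0. The libraries of these 3 genes did not overlap, beside 17.6% of all genes. In RL14_W against RL7_W, 0 of the 10 and 0.036% of all genes were called, with 3 of the 10 at an unadjusted p under 0.05. Voom called 3 (Hsph1, Cryab and Hspa8) and DESeq2 1, Hsph1. There Hsph1, Hsp90aa1 and Hspa8 did not overlap, 3 of 10 beside 9.97% of all genes.

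In RL14_W against HU_W, where 9.72% of all genes were called and 5.5% rose, 1 of the 10 genes rose, Bag3. It and Hsph1 had no overlap between the groups, 2 of 10 beside 20.8% of all genes. Bag3 measured 153, 112, 106 and 105 CPM in RL14_W, with RL14_W 1 well above the others and all 4 above HU_W. The rise of 1.32-fold (log2 fold change 0.40 ± 0.13 SE, edgeR adjusted p = 0.0413) was lost under 4 of 12 alternatives and without any of 6 of the 8 libraries (0.0531 to 0.286, all but HU_W 1 and RL14_W 5). The edgeR adjusted p was 0.286 without RL14_W 1. With the 5.8S ribosomal RNA gene n-R5-8s1 as a covariate the log2 fold change was 0.37 ± 0.21 (SE, edgeR adjusted p = 0.946). The 5.8S gene averaged 0.717 CPM in RL14_W and 10.3 CPM in HU_W, so its part cannot be told from that of reloading.

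**Figure D2:**
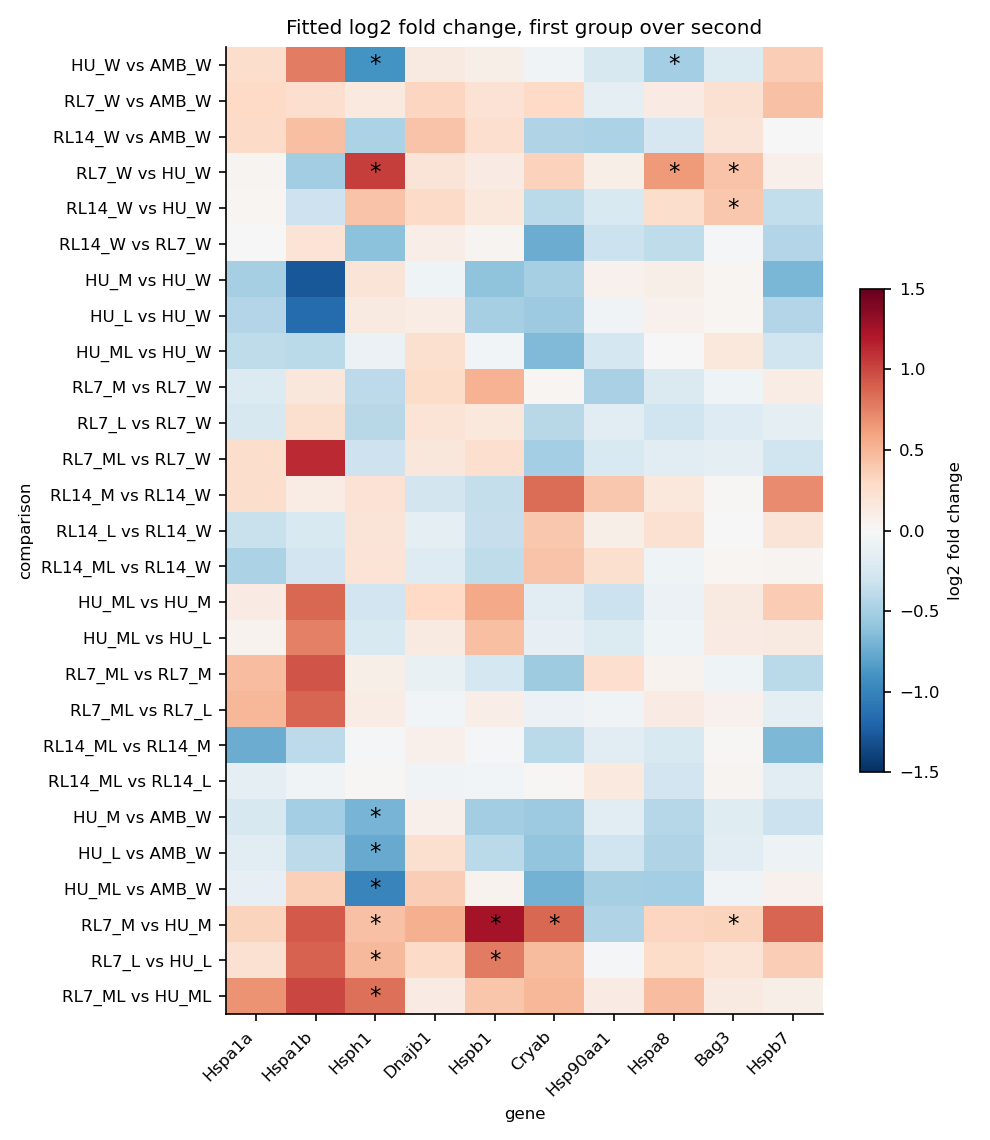
Fitted log2 fold change (colour) of each of the 10 genes (columns) in 27 comparisons (rows), first group over second; stars mark an edgeR adjusted p under 0.05. Stars fall on Hsph1 in 8 of the 27, 4 times with a fall in an unloaded group against AMB_W and 4 times with a rise in a reloaded group over an unloaded one.

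Of the other chaperone genes, 2 of 82 rose and 2 fell in RL7_W against HU_W, a share close to the 4.88% of all genes called. Stip1, which hands clients from HSP70 to HSP90, rose from 47 ± 5.13 to 63.6 ± 4.45 CPM (SD, n = 4; 1.35-fold, edgeR adjusted p = 0.03). Unc45b, a myosin chaperone, rose from 119 ± 11.9 to 163 ± 10.5 CPM (1.38-fold, adjusted p = 0.0312 by edgeR). Fkbp5 fell 4.41-fold, and Synpo2, a Z-disc partner of Bag3, fell 1.28-fold. All 8 glucocorticoid response genes fell in the same comparison, from 1203 to 1486 CPM summed in HU_W to 518 to 671 CPM in RL7_W, and 3 of 8 endothelial markers rose, from 155 to 190 CPM summed to 219 to 291 CPM. The 8 skeletal muscle markers summed to 274306 to 277449 CPM in HU_W and to 223509 to 255344 CPM in RL7_W. In both groups every marker of these 3 lists was detected in every library, and their part in the rise of Hsph1, Hspa8 and Bag3 was not tested.

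In the treated mice the rise of Hsph1 from unloading to 7 d of reloading was also called. It measured 54.8, 53.5, 46.6 and 48.7 CPM in RL7_M, 52.7, 48.8, 44.2 and 55.9 CPM in RL7_L, and 55.8, 67.8, 48.3 and 45 CPM in RL7_ML. In each drink all reloaded libraries lay above all unloaded ones.

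Over HU_ML, RL7_ML had 1.77-fold more Hsph1 (log2 fold change 0.82 ± 0.15 SE, edgeR adjusted p = 0.000578), the only 1 of the 10 genes called, beside 5.9% of all genes called and 2.69% rising. Libraries of 2 of the 10, Hsph1 and Hspa8, did not overlap, beside 17.7% of all genes. This call held under all 12 alternatives and without any 1 of the 8 libraries. Hspa8 reached a log2 difference of 0.46 ± 0.15 (SE, edgeR adjusted p = 0.052) and was called in 5 of the 12 alternatives.

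In RL7_M over HU_M Hsph1 rose 1.36-fold (edgeR adjusted p = 0.0263) and in RL7_L over HU_L 1.40-fold (edgeR adjusted p = 0.0163). There 4 and 2 of the 10 genes were called as rising, beside 29.6% and 28.6% of all genes called and 15.4% and 14.7% rising, so these counts do not set the 10 genes apart. Groups without overlap numbered 4 and 2 of the 10, beside 29.3% of all genes in both. The 5.8S gene n-R5-8s1 averaged 10.9 CPM in HU_M against 0.903 in RL7_M, and 19.8 CPM in HU_L against 0.77 in RL7_L. With it as a covariate 0 of the 10 genes were called in either, and 61 and 27 of all genes. The log2 fold change of Hsph1 was then 0.59 ± 0.25 (SE) in RL7_M and 0.68 ± 0.30 (SE) in RL7_L, against 0.44 and 0.48 without it. That of Hspb1 was lower with it than without it in both. As n-R5-8s1 differed this far between the groups, the fit cannot tell its part from that of reloading. Hsph1 was also lost without the 12 libraries that held Alb (0.241 and 0.203), without any of 6 of the 8 libraries in RL7_M over HU_M (0.0502 to 0.11, all but HU_M 2 and RL7_M 3), and without HU_L 1 (0.0673) or RL7_L 5 (0.0657).

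The other gene called in both was Hspb1 (ENSMUSG00000004951, chr5:135887919-135889563, plus strand), the small heat shock protein HSP27, which guards actin filaments. It measured 33.2, 27.4, 30.9 and 34.7 CPM in HU_M and 63.5, 62.6, 61 and 114 CPM in RL7_M, so that 3 reloaded libraries lay together and RL7_M 4 far above them. The rise was 2.38-fold (log2 fold change 1.25 ± 0.23 SE, edgeR adjusted p = 0.000119). It was called without any 1 of the 8 libraries and under 11 of 12 alternatives. With the 5.8S covariate it was not called (log2 fold change 1.14 ± 0.37 SE, edgeR adjusted p = 0.214). RL7_M 4 was the library with the most adipocyte RNA; without it the log2 fold change was 0.95 (adjusted p = 0.00289).

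In HU_L Hspb1 measured 37.8, 34.3, 42.1 and 22.2 CPM and in RL7_L 54.6, 42.2, 86.1 and 51.1 CPM. The groups touched at 42.1 and 42.2 CPM without crossing. The rise of 1.71-fold (log2 fold change 0.78 ± 0.23 SE, edgeR adjusted p = 0.00989) was lost without RL7_L 3 (0.0859) and without HU_L 5 (0.0647). With the 5.8S covariate it was also lost (log2 fold change 0.63 ± 0.44 SE, edgeR adjusted p = 0.813). On water, where Hspb1 measured 36.7, 33.7, 85.1 and 36.8 CPM in HU_W and 58.2, 54, 50.6 and 46.5 CPM in RL7_W, the difference was 0.12 ± 0.23 on the log2 scale (edgeR adjusted p = 0.807). HU_W 3 alone lay above RL7_W. Without HU_W 3 the log2 difference was 0.54 (edgeR adjusted p = 0.153). A further test asked whether metformin acted differently at 7 d of reloading than in unloading. With all libraries this interaction was 1.13 ± 0.32 (SE, edgeR adjusted p = 0.431). Without HU_W 3 it was 0.69 ± 0.28 (SE, edgeR adjusted p = 0.474). Without the 12 libraries that held Alb this interaction was called (1.67 ± 0.31 SE, adjusted p = 0.0317 by edgeR). That fit kept only HU_W 3 and HU_W 4 of HU_W and only RL7_M 3 and RL7_M 4 of RL7_M. HU_W 3 (85.1 CPM) and RL7_M 4 (114 CPM) stood far above their groups, and their part in this call was not tested.

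Bag3 was the fourth gene called in RL7_M over HU_M. It measured 97.4, 91.4, 85.5 and 92.7 CPM in HU_M and 104, 111, 118 and 131 CPM in RL7_M. The groups did not overlap, but the rise (log2 fold change 0.34 ± 0.13 SE, edgeR adjusted p = 0.0438) was lost under 7 of 12 alternatives and without any of 7 of the 8 libraries (0.0612 to 0.204, all but RL7_M 1).

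Cryab (ENSMUSG00000032060, chr9:50751325-50756636, plus strand) encodes αB-crystallin, a small heat shock protein that binds desmin and titin. It overlaps Hspb2 on the opposite strand over 17% of its exonic bases, and because the strand setting of the counting is not given in the sources used here its counts are uncertain, though Hspb2 had 10213 counts in all against 293741. It measured 257, 202, 161 and 216 CPM in HU_M and 229, 243, 277 and 771 CPM in RL7_M. The groups overlapped and RL7_M 4 carried the difference of 1.82-fold (edgeR adjusted p = 0.0342), which shrank to a log2 value of 0.22 (adjusted p = 0.622) without RL7_M 4. It was also lost without HU_M 2 (0.0691), HU_M 3 (0.106) or HU_M 4 (0.07), and under 4 of 12 alternatives.

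In HU_W Cryab measured 222, 183, 607 and 165 CPM against 263, 333, 285 and 335 CPM in AMB_W. Here 3 unloaded libraries lay under the baseline and HU_W 3 above it. The log2 difference was -0.05 ± 0.31 (SE, edgeR adjusted p = 0.973), and -0.68 without HU_W 3 (adjusted p = 0.29). All 12 libraries of HU_M, HU_L and HU_ML, at 140 to 257 CPM, lay under the lowest ambulatory one, with log2 differences of -0.54, -0.59 and -0.71 and edgeR adjusted p of 0.415, 0.37 and 0.269, none of them called. A fit of only the groups compared called all 3.

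Hspb7 (ENSMUSG00000006221, chr4:141420779-141425311, plus strand), the small heat shock protein of heart and skeletal muscle that binds filamin, was called in none of the 27 comparisons by edgeR. Limma voom called it in RL14_M against RL14_W (log2 fold change 1.25, adjusted p = 0.028), and edgeR did so in RL7_M over HU_M without the 12 libraries that held Alb (1.36, adjusted p = 0.0378). The latter fit kept only RL7_M 3 (216 CPM) and RL7_M 4 (492 CPM) of RL7_M. Hspb7 was the most variable of the abundant genes, from 59.4 CPM in RL14_W 3 to 563 CPM in RL7_L 3, and its groups overlapped in 26 of the 27. Within RL14_W it measured 353, 59.4, 129 and 136 CPM, and within RL7_L 116, 62.4, 563 and 92 CPM. In these groups RL14_W 1 and RL7_L 3 lay far above the rest, while HU_L (157 to 168 CPM) and RL14_M (255 to 312 CPM, the group with the highest mean) were tight.

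**Figure D3:**
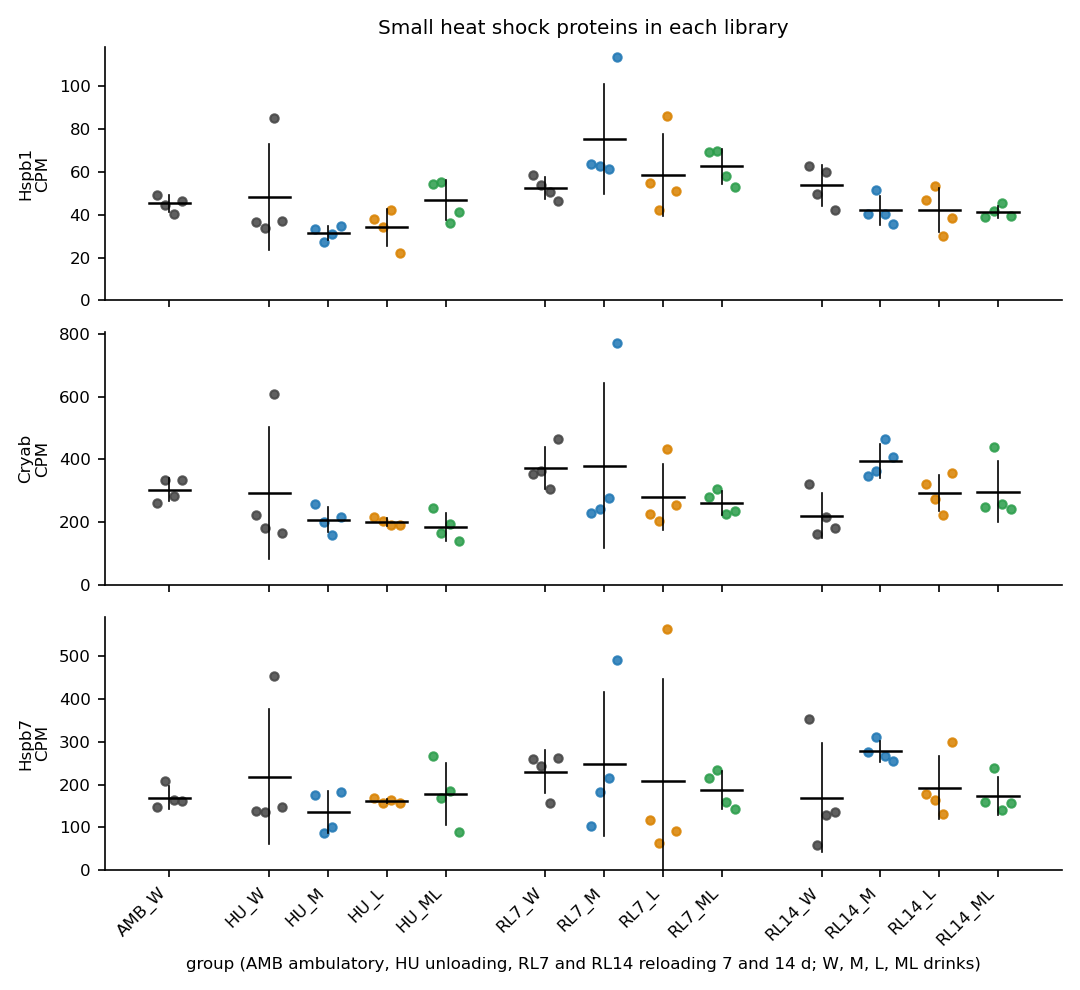
Level of the small heat shock genes Hspb1, Cryab and Hspb7 in CPM, for each of the 52 libraries (points) in the 13 groups, with group means (horizontal lines) and 1 SD (vertical lines, n = 4). In HU_W, replicate 3 lies above the other 3 libraries for all 3 genes, at 85.1, 607 and 454 CPM.

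The spread of Hspb7 and Cryab went with the amount of slow fibre RNA in the library. Over the 52 libraries the log2 level of Hspb7 had a Pearson correlation of 0.73 with the mean log2 level of 12 slow fibre genes, among them Myh7 and Tnnt1, and 0.72 after group means were removed. For Cryab the values were 0.56 and 0.63, for Hspa1a 0.45 and 0.50, while Hsph1 had -0.01 and -0.06. The 2 genes in each pair share a library, its scaling and the piece of muscle taken, and the values are descriptions. All 12 slow fibre genes were detected in every library, with a summed level of 51.7 to 2529 CPM. In RL7_L, where Hspb7 spread most, the sum ran from 76.9 to 1472 CPM, and in RL14_W from 51.7 to 1176 CPM. The highest sum was in the library highest in Hspb7, RL7_L 3 and RL14_W 1. This was not so in every group. In AMB_W, HU_M, HU_L, RL7_W, RL7_ML and RL14_M the highest sum was in another library than the highest Hspb7. The mitochondrial share of counts had a correlation of -0.57 with Hspb1, -0.51 with Dnajb1 and 0.49 with Hsp90aa1, and of -0.08 to 0.17 with the other genes. Where Hspb1 was called, this share was 13.1 to 17.1% in HU_M and 5.53 to 9.22% in RL7_M. It was 14.4 to 24.1% in HU_L and 5.88 to 9.42% in RL7_L. Whether fibre content or the mitochondrial share sets these levels was not tested.

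**Figure D4:**
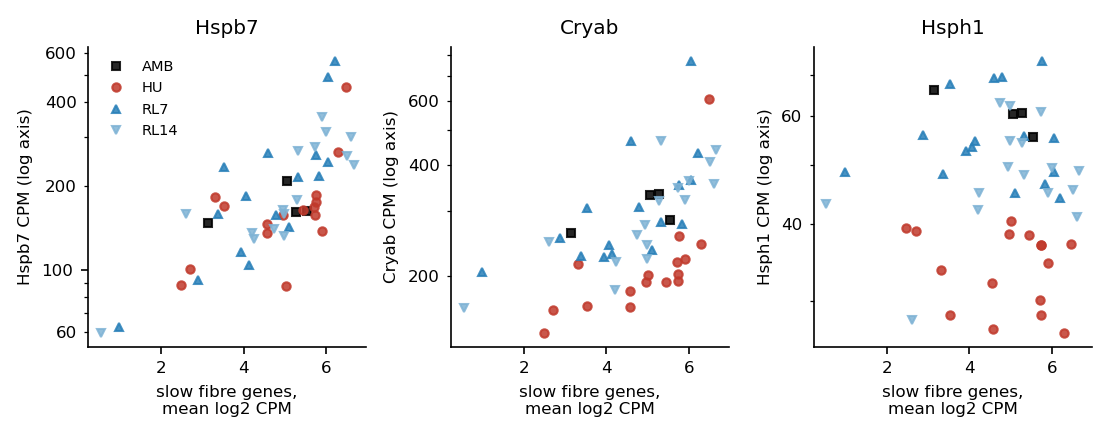
Level of Hspb7, Cryab and Hsph1 (CPM, log axes) against the mean log2 CPM of 12 slow fibre genes in the 52 libraries, with symbols for the time. Hspb7 and Cryab climb along the axis (r = 0.73 and 0.56). For Hsph1 (r = -0.01) the unloaded libraries lie lowest, together with RL14_ML 1, and the other times overlap.

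Within the 10 genes, libraries high in one were often high in others, in separate sets. Hsph1 and Hspa8 had a Pearson correlation of 0.87 over the 52 libraries and 0.80 within groups, and Hsph1 with Hsp90aa1 0.44 and 0.74. Cryab and Hspb7 had 0.79 and 0.83, and Hspb1 and Cryab 0.52 and 0.69. Between Hsph1 and the small heat shock genes the values within groups were 0.05 for Hspb1, -0.04 for Cryab and -0.17 for Hspb7. HU_W 3 and RL7_ML 3 were each the highest of their 4 libraries for 9 of the 10 genes. The non-member genes most like the mean standardised level of the 10, among 10345 candidates over 52 libraries, were Lmcd1 (r = 0.76), Ckmt2 (0.75), Kdr (0.74), Hspa1l (0.72), Bdh1 (0.71) and Dnaja4 (0.71). Over the 13 group means they were Coq3 (0.96), Arhgap18 (0.95) and Stom (0.95).

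The stress-inducible HSP70 genes stayed low and were called in none of the 27 comparisons. Hspa1a ran from 1.16 to 9.05 CPM and Hspa1b from 0.254 to 9.75 CPM, both highest in RL7_ML 3. In AMB_W Hspa1a measured 3.33, 2.2, 2.52 and 2.19 CPM and in HU_W 1.43, 2.11, 6.22 and 2.53 CPM, so the groups overlapped. No source used here says how reads that match both copies were counted, and if they were dropped the levels of both are too low. The 2 copies added together, which does not depend on how shared reads were split, gave 3.84 ± 0.753 CPM in AMB_W and 5.26 ± 3.91 CPM in HU_W (SD, n = 4), and the lowest edgeR adjusted p of the sum over all comparisons and interactions was 0.322. Counts were few, with 18 to 206 for Hspa1a, and the log2 difference of Hspa1b in HU_W against AMB_W was 0.76 with an interval of 2 SE from -0.44 to 1.97.

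Dnajb1 (ENSMUSG00000005483, chr8:83608193-83612653, plus strand), the J domain partner that stimulates HSP70, lay between 1.03 and 3.91 CPM and its lowest edgeR adjusted p in the 27 comparisons was 0.12. Hsp90aa1 (ENSMUSG00000021270, chr12:110690605-110702728, minus strand) measured 34.4, 31.4, 27.6 and 33.9 CPM in AMB_W, the highest group, and 25.8, 24.1, 35.2 and 22.8 CPM in HU_W. The groups overlapped through HU_W 3. In HU_ML it measured 23.1, 23.9, 19.8 and 23.5 CPM, all under AMB_W, with a log2 difference of -0.50 ± 0.22 (SE, edgeR adjusted p = 0.275). Its lowest edgeR adjusted p was 0.117, in RL7_M over HU_M (log2 difference -0.46), where it was called as falling without RL14_ML 1 and 6 (-0.48, adjusted p = 0.028) and without RL7_M 1 (-0.65, adjusted p = 0.0387).

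**Figure D5:**
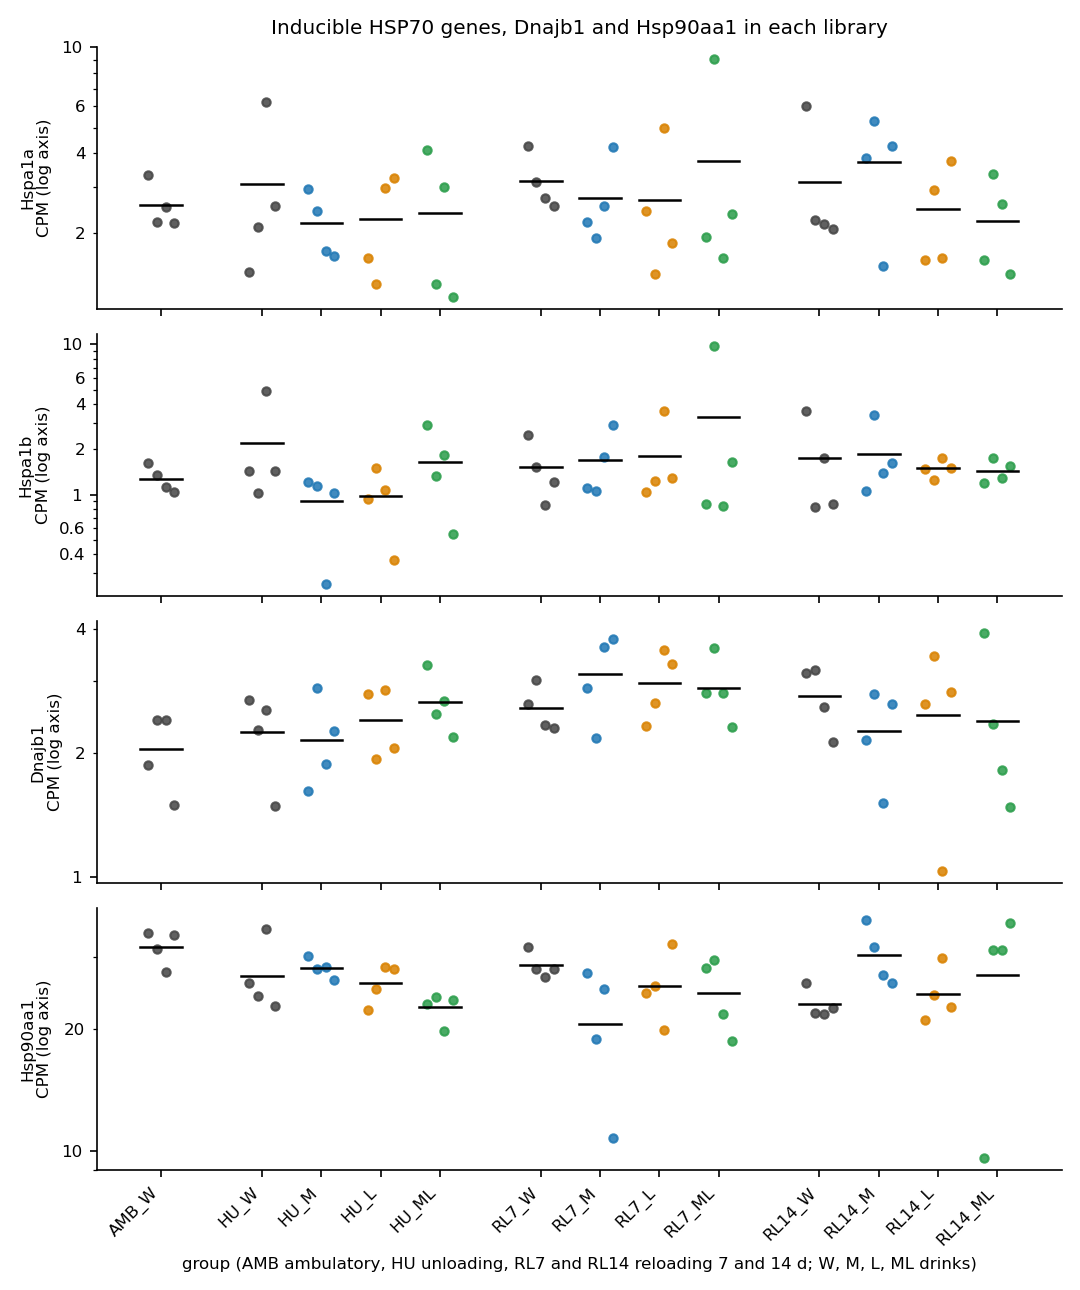
Level of Hspa1a, Hspa1b, Dnajb1 and Hsp90aa1 (CPM, log axes) for each of the 52 libraries (points) in the 13 groups, with group means as lines. Hspa1a and Hspa1b are highest in RL7_ML replicate 3, at 9.05 and 9.75 CPM, and for both, groups that are neighbours in the order of means overlap.

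The effect of each drink was asked against water at the same time. In all 9 of these comparisons 0 of the 10 genes were called by edgeR, beside few of all genes: 0%, 0.006% and 0.048% for M, L and ML in unloading, 0.138%, 0.078% and 0.006% at 7 d, and 5.12%, 0.294% and 0.714% at 14 d. At an unadjusted p under 0.05 there were 2, 1 and 1 of the 10 for M, L and ML in unloading, 3, 1 and 0 at 7 d and 1, 0 and 0 at 14 d. DESeq2 called 1 of the 10 in RL14_M and voom 3 in RL14_M and 2 in RL14_ML, and neither called any in the other 7.

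In unloading, the log2 difference of Hsph1 from HU_W was 0.20 in HU_M (interval of 2 SE from -0.11 to 0.51), 0.14 in HU_L (-0.17 to 0.45) and -0.09 in HU_ML (-0.40 to 0.22). At 7 d it was -0.40 in RL7_M (-0.70 to -0.09), -0.41 in RL7_L (-0.72 to -0.11) and -0.31 in RL7_ML (-0.61 to -0.00) against RL7_W. The treated groups thus had lower means of Hsph1 at 7 d than water, at 50.4 to 54.2 CPM against 67.1 CPM, but the edgeR adjusted p were 0.264, 0.493 and 0.549. In RL7_M the libraries of 3 of the 10 genes, Hsph1, Hspa8 and Hspb1, did not overlap with water, beside 10.7% of all genes. Without RL14_ML 1 and 6 Hsph1 was called there (adjusted p = 0.0482).

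The lowest adjusted p of any drink belonged to Cryab in RL14_M, which measured 347, 362, 465 and 409 CPM against 322, 164, 218 and 183 CPM in RL14_W. All 4 metformin libraries lay above water, of which RL14_W 1 was the highest. The log2 difference was 0.83 ± 0.31 (SE, n = 4 per group, edgeR adjusted p = 0.0966), and Cryab and Hsph1 were the 2 of 10 genes without overlap, beside 17.8% of all genes. Voom (0.00994), DESeq2 (0.0475) and a fit of only the groups compared (0.0179) called it. The slow fibre sum was 980 to 2273 CPM in RL14_M and 51.7 to 1176 CPM in RL14_W, and n-R5-8s1 averaged 18.4 CPM against 0.717 CPM. With n-R5-8s1 as a covariate 0 of all genes were called in this comparison, against 853 without it. Cryab was called neither in the main fit nor with the slow fibre level or n-R5-8s1 as a covariate. Both differed between these groups, so their part in the difference of Cryab cannot be told apart from that of the drink.

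Of the other small heat shock genes in the same comparison Hspb6, not one of the 10, rose 1.96-fold, from 497 ± 149 to 974 ± 127 CPM (SD, n = 4; edgeR adjusted p = 0.0192), while Hspb8, the small heat shock partner of Bag3, fell 1.62-fold, from 208 ± 21.9 to 128 ± 27.7 CPM (edgeR adjusted p = 0.0487). In all 4 of the 82 further chaperone genes rose and 8 fell, beside 5.12% of all genes called, among them Sqstm1, an autophagy receptor (from 288 to 193 CPM, adjusted p = 0.00878 by edgeR), and Bag6. None of these calls held with n-R5-8s1 as a covariate, where 0 of all genes were called. As n-R5-8s1 differed far between the 2 groups, that fit cannot tell its part from that of the drink. Without RL14_W 3, 41 of all genes were called, against 853 with it. In RL7_M over HU_M 10 of the 82 rose and 16 fell, and in RL7_L over HU_L 6 rose and 20 fell, shares close to the 29.6% and 28.6% of all genes called there. Hspb8 rose 1.89-fold in RL7_M over HU_M and 2.09-fold in RL7_L over HU_L.

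Both drinks together were set against each drink alone at each time. In the 6 comparisons 0 of the 10 genes were called, beside 0.15% and 0.096% of all genes in unloading, 0% and 0% at 7 d and 0.024% and 0% at 14 d, with 1 of the 10, Hspb1 in HU_ML against HU_M, at an unadjusted p under 0.05; limma voom and DESeq2 called 0. The 6 tests of whether a drink acted differently in reloading than in unloading called 0 of the 10 by edgeR and DESeq2, with 0 to 2 at an unadjusted p under 0.05. Over all genes 0.03%, 0.066% and 0.012% were called for M, L and ML at 7 d, and 0.024%, 0.006% and 0.96% at 14 d. Voom called Cryab for metformin at 14 d, and Hsph1 and Hsp90aa1 for both drinks at 14 d.

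Ordered by group mean, Hsph1 was lowest in HU_ML, HU_W, HU_L and HU_M, then in RL14_W, and highest in AMB_W and RL7_W. Of the 12 neighbouring pairs in that order 1 did not overlap, the step from HU_M to RL14_W. Hspa8 had the same 4 unloaded groups at the bottom and AMB_W and RL7_W at the top, with overlap between all neighbours. Bag3 also had the 4 unloaded groups lowest, with means of 90.3 to 100 CPM. Its 1 neighbouring pair that did not overlap lay within unloading, HU_L (up to 97.4 CPM) and HU_ML (from 97.7 CPM). HU_ML (up to 106 CPM) overlapped with AMB_W (from 91.1 CPM), the next group in the order. For the other 7 genes every neighbouring pair overlapped.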

How the data were processed

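Whole-number read counts per Ensembl gene, deposited by the authors for 52 libraries with no normalization, were used. Libraries were stranded and depleted of ribosomal RNA, per the labels' protocols. The submitters' processing notes name GRCm38, STAR 2.7.3a, featureCounts 1.6.3 and DESeq2 1.30.0; the strand setting and annotation release are not given in the sources used here. Symbols and coordinates came from GENCODE vM21 by identifier, and promoter windows from RefSeq on GRCm38.p6.

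Tests across genes used edgeR 4.0.16 (R 4.3.3) on those counts. Of the 55487 genes, 16668 passed filterByExpr (minimum count 10). TMM factors scaled the libraries, and all 52 entered a single robust quasi-likelihood fit with 13 group means and 39 residual degrees of freedom. Benjamini-Hochberg adjustment ran within each comparison over the 16668 genes, with 0.05 as the threshold for calling a gene changed. Each SE was derived from the F statistic. The steps were tested on simulated data.

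Totals ran from 15605044 to 32492548 counts. Among 78 pairs of replicates none looked like 1 library deposited again (lowest chi-square per degree of freedom 6.82).

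There were 27 comparisons and 6 interactions. Alternatives were RLE factors, no filter, DESeq2 1.42.0, limma 3.58.1 voom with quality weights, only the groups compared, a replicate block, 5.8S RNA or slow fibre level as a covariate, other library sizes, summed Hspa1a and Hspa1b, and left-out libraries. The slow fibre covariate and the fit without RL14_ML 1 and 6 were chosen after seeing the data. The 10 genes, the lists and the naming rule (the 10 genes, Hsf1, up to 3 rising and 3 falling chaperone genes of smallest p per comparison, and the most alike genes) were chosen with earlier results of these data known. Some genes that the rule allows are left out for lack of room.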

Additional observations from a re-analysis of the deposited data

Results flagged for a closer look

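Of 130 groups of 4 libraries (10 genes in 13 groups), 16 held a library far from the other 3, with a gap to the nearest library that took up most of the group's range. For independent and normally distributed values chance gives about 1 in 20 such groups. CPM values of genes from the same libraries are not independent, so the 16 cannot be set against that share. The 16 lay in 9 libraries, so genes of one library were often marked together, and no explanation was tested.

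HU_W 3 was high for Hspa1b (4.86 CPM, others 1.03 to 1.43), Hspb1 (85.1 CPM, others 33.7 to 36.8), Cryab (607 CPM, others 165 to 222) and Hspb7 (454 CPM, others 136 to 147). RL7_ML 3 was high for Hspa1a (9.05 CPM, others 1.62 to 2.37) and Hspa1b (9.75 CPM, others 0.837 to 1.65). RL7_M 4 was high for Hspb1 (114 CPM, others 61 to 63.5) and Cryab (771 CPM, others 229 to 277). RL7_L 3 was high for Hspa1b (3.61 CPM, others 1.03 to 1.29) and Hspb7 (563 CPM, others 62.4 to 116). RL14_W 1 was high for Hspa1a (6.02 CPM, others 2.08 to 2.25) and Bag3 (153 CPM, others 105 to 112).

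The remaining 4 libraries were marked for 1 gene each. HU_ML 6 was high for Hsph1 (39.5 CPM, others 26.6 to 28.4) and RL14_ML 3 for Cryab (441 CPM, others 244 to 259). RL7_M 3 was low for Hspa8 (586 CPM, others 663 to 672), as was RL14_L 5 (624 CPM, others 691 to 704).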

How the results depend on the processing

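The fall of Hsph1 in HU_W, HU_M, HU_L and HU_ML against AMB_W and its rise in RL7_W over HU_W and RL7_ML over HU_ML were called under all 12 alternatives and without any 1 of the 8 libraries compared. All other calls were lost under at least 1 setting, and 0 called values changed direction. Values that were not called could change it, as did Hspb1 in HU_W against AMB_W, from 0.09 to -0.34 without HU_W 3. Of 3894 log2 fold changes under alternatives, 3808 kept their side of the threshold, whatever their direction. Of the rest, 56 passed it newly and 30 no longer did. The cause was not tested. Depth limits Hspa1a, Hspa1b and Dnajb1 most, with median counts of 46, 26 and 49.5 in a library.

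Of the 10 genes, the number called in HU_W against AMB_W was 2, and 1 with RLE factors, no filter, the replicate block (Hspa8 adjusted p = 0.0512), other library sizes, or without the 12 libraries with Alb. In RL7_W over HU_W it was 3, and 1 without those 12. In RL14_W over HU_W it was 1. It became 0 with RLE factors, no filter, the 5.8S covariate or without the 12, and 2 with voom, only the groups compared or without RL14_ML 1 and 6. In RL14_W against AMB_W it was 0, with voom 3, with only the groups compared 2 and without RL14_ML 1 and 6 it was 1. In RL14_W against RL7_W it was 0, with voom 3, and 1 with DESeq2, only the groups compared or without RL14_ML 1 and 6. In HU_M against AMB_W it was 1, with voom 2, with only the groups compared 4 and without RL14_ML 1 and 6 it was 2. In HU_L these were 1, 2, 3 and 2, and in HU_ML 1, 3, 4 and 2, with 2 for DESeq2. In RL7_M over HU_M it was 4, without a filter 2, with the 5.8S covariate 0, and 6 without RL14_ML 1 and 6. In RL7_L over HU_L it was 2, with the 5.8S covariate 0 and without the 12 libraries 1. There voom called Hspa8 as well (voom adjusted p = 0.0433). With the slow fibre covariate Cryab was called as well (log2 fold change 0.83 ± 0.26 SE, edgeR adjusted p = 0.014). In RL7_ML over HU_ML it was 1, and 2 with voom, DESeq2, only the groups compared, the slow fibre covariate or without RL14_ML 1 and 6.

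Among the drinks, where the number was 0, RL14_M against RL14_W gave 3 with voom, 1 with DESeq2 and 2 with only the groups compared, and RL14_ML against RL14_W gave 2 with voom. RL7_M gave 1 without RL14_ML 1 and 6, and RL7_ML gave 1 with only the groups compared. Of the interactions, metformin at 7 d gave 1 without the 12 libraries, metformin at 14 d gave 1 with voom, and both drinks at 14 d gave 2 with voom.

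Leaving out each library in turn gave 1 to 2 called genes in HU_W, HU_M, HU_L and HU_ML against AMB_W, 2 to 3 in RL7_W over HU_W, 0 to 2 in RL14_W over HU_W, 0 to 1 in RL14_W against AMB_W and against RL7_W, 1 to 6 in RL7_M over HU_M, 1 to 2 in RL7_L over HU_L and in RL7_ML over HU_ML. Among the drinks it gave 0 to 1 in RL7_M and RL14_M and 0 to 2 in RL14_ML, and among the interactions 0 to 1 for both drinks at 14 d. The higher counts in RL14_W, RL7_M against RL7_W, RL14_ML, HU_M, HU_L and RL7_ML arose without RL14_ML 1, where Hsph1 (0.0273) and Hsp90aa1 (0.0451) were called in RL14_ML over RL14_W.

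The replicate block treated equal title numbers as pairs. The numbers do not pair the samples: over 219 pairs with the same number the median correlation of deviations from group means was 0.0133 (-0.305 to 0.39), and 11 of 52 libraries were most like one of their own number.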
